A study of Mus musculus with 10 samples.

Results

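The genes described here carry fatty acids into the heart muscle cell and burn them: 38 genes of fatty acid uptake, activation, the carnitine shuttle, mitochondrial beta-oxidation, electron transfer and lipid storage. They were chosen by name from knowledge of the pathway, with earlier results of these data known. All 38 are present among the 23337 genes of the deposited table. RNA was sequenced from cardiomyocytes (heart muscle cells) of 10 mice. In 5 of them both copies of Actn2 were floxed (Actn2F/F, called the knockout), and in the other 5 a single copy was (Actn2F/+, called the heterozygote). A floxed copy is one that the recombinase Cre can cut, and Actn2 encodes alpha-actinin-2, which ties actin filaments together at the sarcomere's Z-line. All 10 mice were given AAV9-cTNT-Cre, an adeno-associated virus with Cre, on postnatal day 1, and cells were sorted on postnatal day 14. The comparison group therefore also carried Cre and a floxed copy, and neither mice without the virus nor mice with 2 normal copies are among the samples. The name cTNT stands for cardiac troponin T, whose promoter is active in cardiomyocytes. The gate used for sorting is not given in the sources used here.

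As background, fatty acids are the main fuel of the mature heart, and the neonatal heart shifts to them from glucose and lactate in the days after birth. A fatty acid is freed from lipoproteins or taken from droplets, crosses the membrane, is activated to acyl-CoA, enters the mitochondrion on carnitine, and is shortened by repeated rounds of dehydrogenation, hydration, a second dehydrogenation and thiolysis. Electrons from the first dehydrogenation pass through the electron transfer flavoprotein to ubiquinone. Many of the genes are known targets of the nuclear receptors PPAR and ERR.

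Total counts ran from 8086656 to 25237696 per library. Actn2 itself was at 1286, 1249.9, 1145, 1182 and 1219.8 CPM in knockouts 1 to 5 and at 3366, 3454, 3474, 2930.1 and 2677 CPM in heterozygotes 1 to 5 (edgeR log2 fold change -1.39 ± 0.0910 SE, adjusted p 3.48e-07), which is 38.3% of the heterozygote level, without overlap and in the direction of the labels. CPM is a gene's count relative to all counts of its library, with library totals scaled by TMM. The cardiomyocyte markers Myh6, Tnnt2, Actc1, Ryr2, Pln, Ttn, Myl2 and Myl3 did not pass the test, Tnni3 was lower and Mybpc3 higher, and the summed level of the 10 cardiomyocyte markers was 107139 to 133217 CPM in the knockout and 108761 to 134781 CPM in the heterozygote. A call below means an adjusted p under 0.05 in edgeR's quasi-likelihood test over all 11870 tested genes, of which 2241 (18.9%) were called, 1216 higher and 1025 lower in the knockout. Scaling by library totals alone gave 1684 higher and 760 lower. Heterozygote 1 had the most counts, and heterozygote 3 stood apart in 10 genes of the interferon response (summed level 713 CPM, beside 29.0 to 49.4 CPM in the other 9 libraries). Knockout 5 stood apart in 5 atrial markers (summed level 385 CPM, beside 5.21 to 85.5 CPM in the other 9), and without it 26 of the 38 genes below were called lower. The Y-linked genes Ddx3y, Uty and Kdm5d had 0 counts in heterozygotes 3 and 5 and in knockout 5, so 2 of 5 heterozygotes and 1 of 5 knockouts lacked them. With the mean of the Y-linked genes as a covariate 25 of the 38 genes were called, all lower, with the call of Lipe lost. In these bulk samples fewer cells of a type and less RNA per cell cannot be told apart.

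All 38 genes passed the filter on low counts. Of them, 26 (68.4%) were called lower in the knockout and 0 were called higher, beside 8.64% lower and 10.2% higher among all tested genes. At an unadjusted p under 0.05, 0 were higher. With DESeq2 and with limma voom the count of higher genes was also 0. Without heterozygote 1 or without heterozygote 3 the count of lower genes was 25, with the call of Lipe or of Pnpla2 lost. The median log2 fold change over the 38 genes was -0.58, beside 0.0023 over all tested genes. Abundant genes were called more often in general: of the 1681 tested genes that averaged 100 CPM or more, 34.5% were called, 19.8% lower, and the median was -0.04, while 24 of the 32 pathway genes in that range were called lower, with a median of -0.62. In 24 of the 38 genes every knockout lay below every heterozygote, beside 6.32% of all tested genes, and in 0 did every knockout lie above, beside 8.41%. At 100 CPM or more every knockout lay below in 23 of the 32 pathway genes and in 270 of the 1681 tested genes. Every knockout lay above in 0 and 229 of them. Together the 38 genes held 36017 ± 2459 CPM in the heterozygote and 24612 ± 724 CPM in the knockout (mean ± SD, n = 5 each), which is 68.3% of the heterozygote level.

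**Figure D1:**
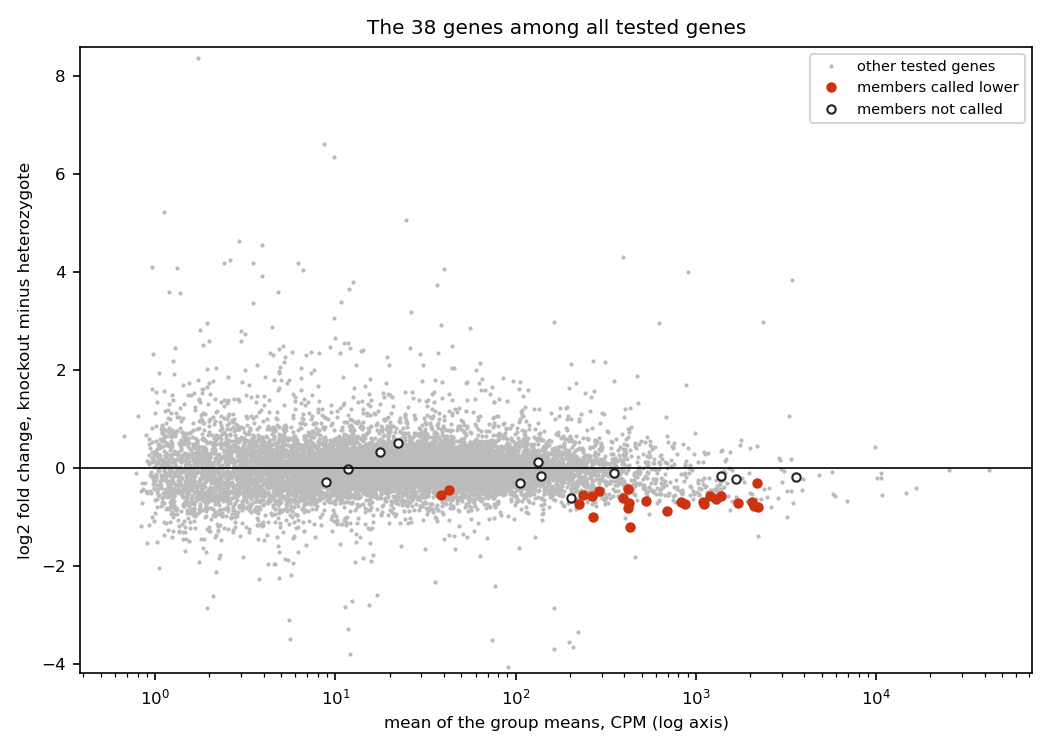
Each point is a tested gene, with the mean of the 2 group means in CPM on the horizontal log axis and the log2 fold change (knockout minus heterozygote) on the vertical axis. Red points are the 26 pathway genes called lower, open circles the 12 not called, and grey points all other tested genes; the red points lie between -1.21 and -0.30, mostly among the abundant genes.

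Electron transfer, lipid stores and beta-oxidation held most of the calls. All 3 genes of electron transfer and all 4 of lipid stores were called lower, as were 13 of 14 of beta-oxidation, 3 of 7 of the carnitine shuttle and its control, 2 of 4 of uptake, 1 of 2 thioesterases and 0 of 4 of activation. For activation the count was 0 at an unadjusted p under 0.05 too, and 0 with DESeq2 and limma voom. Whether the steps differ from one another was not tested. Median log2 fold changes were -0.73 for electron transfer, -0.73 for lipid stores, -0.62 for beta-oxidation, -0.55 for the carnitine shuttle, -0.47 for uptake, -0.32 for the thioesterases and 0.087 for activation.

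**Figure D2:**
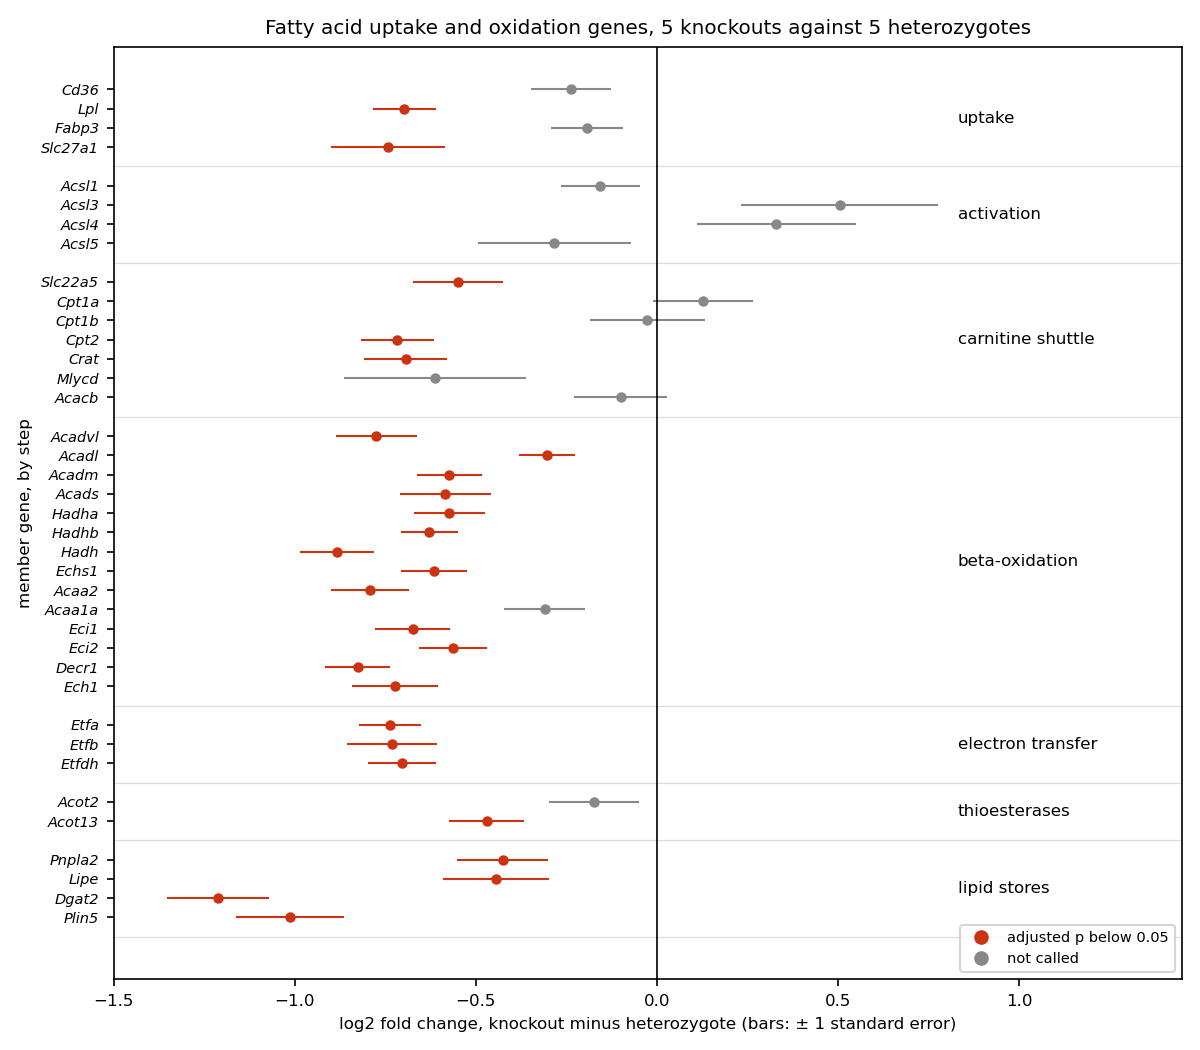
The horizontal axis gives the log2 fold change of each gene (knockout minus heterozygote, 5 animals each) with a bar of 1 standard error on either side, and genes are grouped by step on the vertical axis. Red marks the 26 genes called lower and grey the 12 not called, among them all 4 genes of activation, which lie on both sides of 0.

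Because so many of these genes fell together, their promoters were searched for known binding elements. The RefSeq windows from 250 bases before to 50 after the start of transcription were used (build GRCm38.p6, the assembly of mm10). A window was at hand for 31 of the 38 genes. Hadha and Hadhb, which encode the alpha and beta subunits of the mitochondrial trifunctional protein, lie head to head on chromosome 5, with RefSeq starts 273 bases apart. The stretch between them is shown because both genes are read from it, Hadha leftward and Hadhb rightward. It is written on the plus strand, and the 2 capitals mark the position of the first transcribed base of Hadha, which is read from the other strand, and of Hadhb.
Hadha-Hadhb, chr5:30154980-30155279: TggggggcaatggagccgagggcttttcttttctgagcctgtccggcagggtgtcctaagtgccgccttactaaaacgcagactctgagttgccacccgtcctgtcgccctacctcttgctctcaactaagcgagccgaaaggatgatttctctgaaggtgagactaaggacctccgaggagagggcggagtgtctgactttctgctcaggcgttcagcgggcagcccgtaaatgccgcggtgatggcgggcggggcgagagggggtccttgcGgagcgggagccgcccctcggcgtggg

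The direct repeat bound by PPAR with its partner RXR was searched as AGGTCANAGGTCA on both strands with up to 2 mismatches, which can overlap the AGGTCA half-site searched without mismatch. A repeat was found in 3 of the 31 genes (9.68%), beside 3.42% of the 8530 tested genes with a window. The genes were Cd36, Echs1 and Etfa, named after the matches were seen. The half-site was found in 7 of the 31 genes (22.6%), beside 14.5%. The ERR element TCAAGGTCA was found in 0 of the 31 genes and in 0.34% of the tested genes. A match describes letters in this window and says nothing about binding, and genes with and without a match were both called: Echs1 and Etfa fell and Cd36 was not called. The 3 windows follow, all on the minus strand of the chromosome and written in the direction of transcription, with the repeat in capitals. It begins at position -63 in Cd36, -83 in Echs1 and -77 in Etfa, counted back from the start of transcription, and the repeat reads on the gene's own strand in Echs1 and on the opposite strand in Cd36 and Etfa. The Cd36 window is at a RefSeq start that lies inside the span of the gene in the deposited table (17781690 to 17888959).
Cd36, chr5:17835847-17836146: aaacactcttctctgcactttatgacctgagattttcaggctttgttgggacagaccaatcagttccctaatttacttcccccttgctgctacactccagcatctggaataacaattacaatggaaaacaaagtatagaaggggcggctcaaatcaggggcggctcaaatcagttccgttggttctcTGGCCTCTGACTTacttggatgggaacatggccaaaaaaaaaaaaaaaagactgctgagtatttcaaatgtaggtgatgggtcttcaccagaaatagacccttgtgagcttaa
Echs1, chr7:140116372-140116671: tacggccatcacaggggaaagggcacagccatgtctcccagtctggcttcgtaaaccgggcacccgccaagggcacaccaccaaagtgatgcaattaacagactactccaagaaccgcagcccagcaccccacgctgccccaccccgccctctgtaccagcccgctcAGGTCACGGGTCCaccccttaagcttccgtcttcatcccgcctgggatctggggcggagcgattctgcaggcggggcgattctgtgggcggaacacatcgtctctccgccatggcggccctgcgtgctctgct
Etfa, chr9:55512194-55512493: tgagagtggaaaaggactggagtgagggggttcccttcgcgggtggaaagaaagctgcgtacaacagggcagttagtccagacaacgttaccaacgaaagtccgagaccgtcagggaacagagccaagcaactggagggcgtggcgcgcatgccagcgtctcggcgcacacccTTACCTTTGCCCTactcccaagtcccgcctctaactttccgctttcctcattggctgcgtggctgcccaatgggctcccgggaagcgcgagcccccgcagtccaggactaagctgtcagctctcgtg

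Uptake begins with lipoprotein lipase, the enzyme that frees fatty acids from circulating triglyceride. Its gene Lpl (chromosome 8, 68880555 to 68906932, 10 exon blocks in the annotation) was at 2202, 2503, 2550.0, 2691 and 2733 CPM in heterozygotes 1 to 5 and at 1421, 1471, 1565, 1682 and 1676 CPM in knockouts 1 to 5. The groups did not overlap, and the knockout held 61.7% of the heterozygote level (edgeR log2 fold change -0.70 ± 0.0866 SE, adjusted p 8.04e-05). Slc27a1, the gene of a fatty acid transport protein that couples entry with activation, fell from 280.3 ± 56.2 to 167 ± 32.7 CPM (SD over 5 animals; edgeR log2 fold change -0.74, adjusted p 0.00444), and knockout 5, at 218 CPM, lay above heterozygote 4, at 190 CPM.

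Cd36 and Fabp3, the genes of the fatty acid translocase and of the heart's cytosolic fatty acid binding protein, were not called. Cd36 was at 1977, 1317, 1709.7, 2057 and 1949 CPM in heterozygotes 1 to 5 and at 1466, 1525, 1507, 1539 and 1602 CPM in knockouts 1 to 5 (edgeR log2 fold change -0.24 ± 0.110 SE, adjusted p 0.150). The knockouts fell within a narrow range inside the spread of the heterozygotes, of which heterozygote 2 was lowest. Without heterozygote 2 Cd36 was called (log2 fold change -0.33, edgeR adjusted p 0.00950), as it was with limma voom (-0.28, adjusted p 0.0360). Fabp3 stood at 3817 ± 276 CPM in the heterozygote and 3335 ± 441 CPM in the knockout (log2 fold change -0.19, edgeR adjusted p 0.194). Per exon length it had the highest level of the 38 genes in both groups, with 5963 ± 431 CPM per kb of exon in the heterozygote and 5211 ± 689 in the knockout.

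Cd36 and Lpl are also made outside cardiomyocytes, Cd36 by capillary endothelium. All 12 endothelial markers had a negative log2 fold change, 2 of them called (Egfl7 and Cldn5), and their summed level was 576 to 951 CPM in the heterozygote and 394 to 673 CPM in the knockout. With the mean of these markers as a covariate, Lpl still differed (log2 fold change -0.66, edgeR adjusted p 0.00448) and Cd36 was again not called (-0.23, adjusted p 0.440). Over the 38 genes that fit gave 23 calls, all lower, with a median of -0.64. Over all 11870 tested genes it gave 494 lower and 527 higher, with a median of 0.015. Of 6 adipocyte markers, Adipoq, Cidec, Lep, Cfd and Retn had 0 counts in all 10 libraries, where a count of 0 allows up to 3 counts, and Plin1 was at 0.12 CPM or less in each library. Fibroblast markers summed to 330 to 538 CPM in the heterozygote and 318 to 648 CPM in the knockout, with 0 of 7 tested genes called by edgeR. Immune markers were low throughout, but their summed level was 15.4 to 39.5 CPM in the heterozygote and 8.83 to 12.3 CPM in the knockout, with 1 of 5 tested genes called lower, and their part in the results was not tested.

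Activation joins the fatty acid to coenzyme A. Acsl1, the main long-chain acyl-CoA synthetase of heart muscle, was at 1745, 1345, 1433, 1189.7 and 1541 CPM in heterozygotes 1 to 5 and at 1341, 1513, 1178, 1187 and 1287 CPM in knockouts 1 to 5. The groups overlapped and the gene was not called (edgeR log2 fold change -0.16 ± 0.109 SE, adjusted p 0.352). Few counts fell on Acsl3, Acsl4 and Acsl5. Acsl3 stood at 18.3 ± 3.62 CPM in the heterozygote and 25.9 ± 12.6 CPM in the knockout (log2 fold change 0.50, adjusted p 0.218), with the highest value, 45.5 CPM, in knockout 5. Without that animal the log2 fold change of Acsl3 was 0.19 (adjusted p 0.624). Acsl4 stood at 15.5 ± 5.98 CPM in the heterozygote and 19.8 ± 2.24 CPM in the knockout (0.33, adjusted p 0.330), and Acsl5 at 9.77 ± 3.13 CPM in the heterozygote and 7.95 ± 1.25 CPM in the knockout (-0.28, adjusted p 0.389). That of Acsl5 was -0.099 without heterozygote 4, and that of Acsl4 ran from 0.19 without heterozygote 2 to 0.53 without heterozygote 1. For Acsl1 it was -0.080 without heterozygote 1. None of the 4 genes was called in any of these fits.

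Acsl1 made up nearly all transcripts of the 4 Acsl genes. Its share of the 4 genes, from counts divided by exon length, was 97.2% ± 0.731 in the heterozygote and 96.3% ± 1.12 in the knockout (SD, n = 5 each). The groups overlapped, and a difference was not shown (-0.901 percentage points, exact two-sided permutation p = 0.167 over 252 arrangements, where 0.00794 is the smallest possible). The lowest share was 94.95% in knockout 5 (Wilson 95% interval 94.67 to 95.21%) and the highest 97.85% in heterozygote 2 (97.57 to 98.10%). These intervals cover counting error only.

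In the carnitine shuttle and its control 3 of 7 genes were called lower. Cpt2, whose enzyme on the inner mitochondrial membrane turns acylcarnitine back into acyl-CoA (chromosome 4, 107903982 to 107923589, 5 exon blocks), was at 612, 568, 532, 453 and 493 CPM in heterozygotes 1 to 5 and at 341, 365, 295, 305 and 311 CPM in knockouts 1 to 5. The groups lay apart (edgeR log2 fold change -0.72 ± 0.1005 SE, adjusted p 0.000216). Crat, the gene of carnitine acetyltransferase, which buffers acetyl-CoA, fell from 1022 ± 172 to 631 ± 51.8 CPM (SD over 5 animals; -0.69, edgeR adjusted p 0.000781), also without overlap. Slc22a5, the gene of the plasma membrane carnitine transporter, fell from 45.8 ± 5.67 to 31.3 ± 4.89 CPM (-0.55, edgeR adjusted p 0.00655), again without overlap. Of its transcript, 27.1% of 50-base stretches also occur in transcripts of other genes, mostly Slc22a21, so its counts can be too low in both groups.

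The entry step itself was not called. Cpt1a encodes the carnitine palmitoyltransferase isoform that is prominent in liver and in the fetal heart, and was at 146, 120.3, 138, 117 and 114 CPM in heterozygotes 1 to 5 and at 105, 155, 124, 127 and 181 CPM in knockouts 1 to 5 (edgeR log2 fold change 0.13 ± 0.138 SE, adjusted p 0.576). The knockouts spanned a wider range that covered the heterozygotes. The log2 fold change was 0.0099 without knockout 5, the highest of them (adjusted p 0.970), and -0.017 with the endothelial covariate (adjusted p 0.973). Cpt1b, the muscle isoform, was counted at only 11.8 ± 1.82 CPM in the heterozygote and 11.6 ± 1.97 CPM in the knockout (log2 fold change -0.027, adjusted p 0.933). In the annotation used, 2744 of its 2894 exonic bases (94.8%) also belong to BC090627, and reads over shared bases are left out under the counting program's defaults, so its level rests on the other 150 bases. That level cannot be set beside the level of Cpt1a, and the planned share of the 2 isoforms was not computed. The genes of malonyl-CoA, the inhibitor of this step, were not called either: Mlycd, whose enzyme removes it, stood at 246 ± 91.3 CPM in the heterozygote and 161 ± 48.2 CPM in the knockout (log2 fold change -0.61, edgeR adjusted p 0.106), and Acacb, whose enzyme makes it at the mitochondrion, at 362 ± 58.7 CPM in the heterozygote and 338 ± 49.5 CPM in the knockout (-0.10, adjusted p 0.640). Mlycd varied widely among the heterozygotes, from 154 to 359 CPM, and passed with limma voom (-0.67, adjusted p 0.0476).

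**Figure D3:**
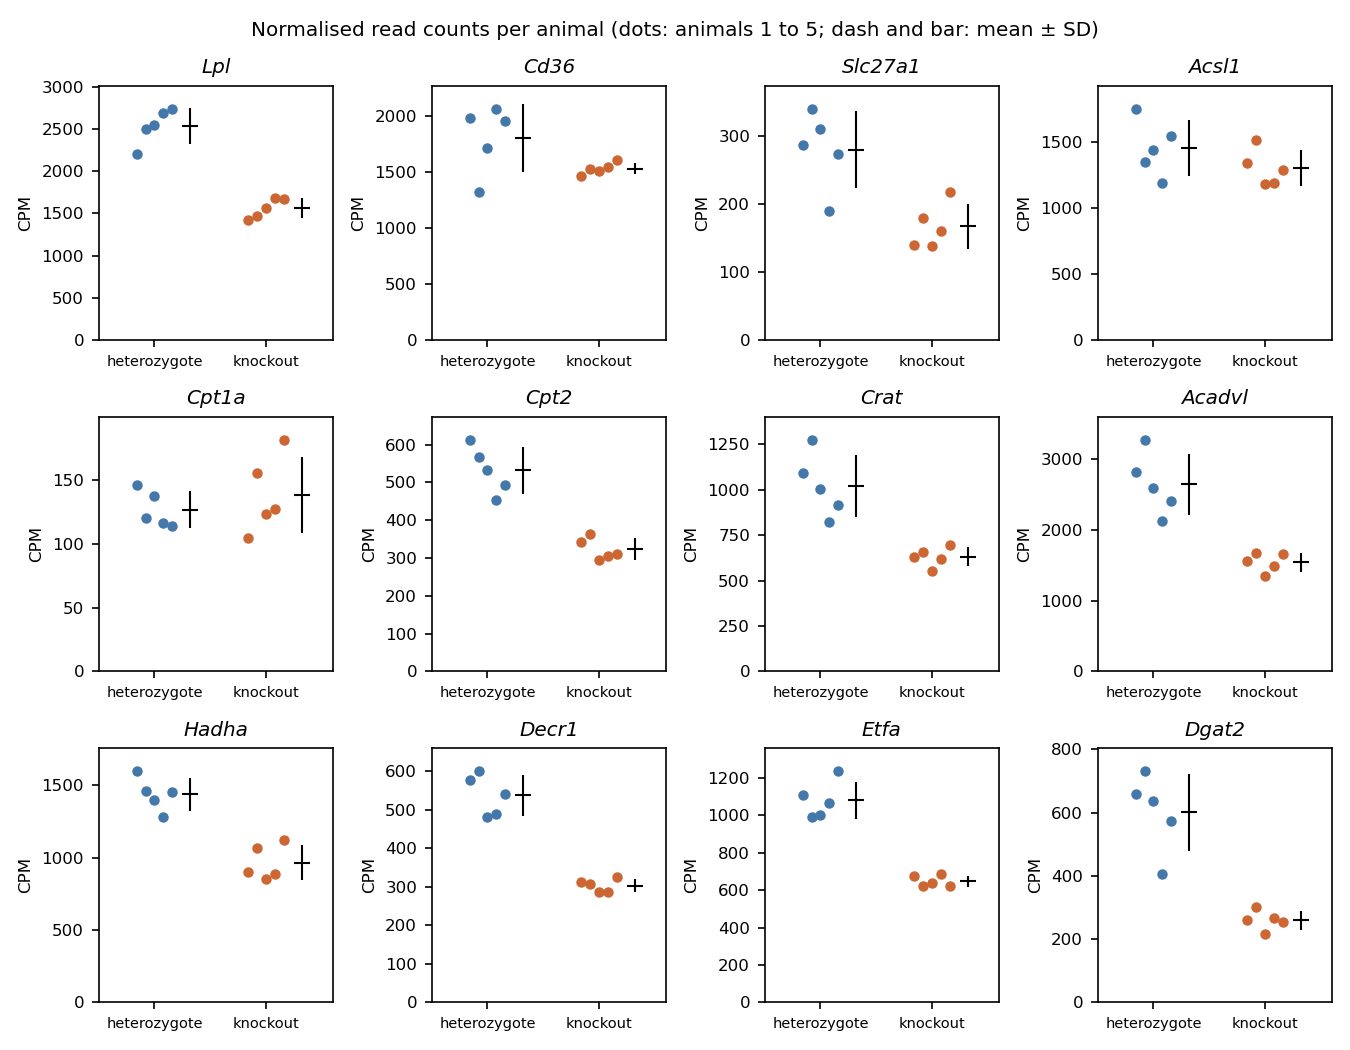
Each panel plots 1 gene, with CPM on the vertical axis from 0, a dot for each of the 5 animals per group, and the mean with its SD as a dash and bar. Dots of the 2 groups overlap for Cd36, Slc27a1, Acsl1 and Cpt1a and lie apart for Lpl, Cpt2, Crat, Acadvl, Hadha, Decr1, Etfa and Dgat2.

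In the matrix, the acyl-CoA dehydrogenases open each round, and each prefers a chain length. Acadvl, for very long chains (chromosome 11, 70010192 to 70015407, 20 exon blocks), was at 2821, 3265, 2589, 2127 and 2409 CPM in heterozygotes 1 to 5 and at 1559, 1668, 1348, 1482 and 1660.0 CPM in knockouts 1 to 5. Every knockout lay below every heterozygote (edgeR log2 fold change -0.78 ± 0.112 SE, adjusted p 0.000278). Acadl, for long chains, was at 2599, 2358, 2267, 2240.3 and 2511 CPM in the heterozygotes and at 1953, 2017, 1801, 1899 and 2030.0 CPM in the knockouts. The groups again lay apart, with the smallest fold change among the called genes (-0.30, SE 0.0771, edgeR adjusted p 0.0132). Acadm, for medium chains, fell from 1653 ± 163 to 1111 ± 86.1 CPM (SD over 5 animals; -0.57, edgeR adjusted p 0.000570), and Acads, for short chains, from 319 ± 65.8 to 213 ± 13.2 CPM (-0.58, adjusted p 0.00514), both without overlap.

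The trifunctional protein carries out the later steps on long chains. Hadha (chromosome 5, 30118304 to 30154980) was at 1598, 1461, 1397, 1279 and 1455 CPM in heterozygotes 1 to 5 and at 902, 1065, 851, 889.7 and 1122 CPM in knockouts 1 to 5. Hadhb, the gene read in the opposite direction from the stretch printed above (chromosome 5, 30155322 to 30184583), was at 1739, 1522, 1453, 1515 and 1665 CPM in the heterozygotes and at 1002, 1064, 997, 998 and 1046 CPM in the knockouts. Both fell without overlap and by like amounts, with log2 fold changes of -0.57 (SE 0.0983, edgeR adjusted p 0.00107) and -0.63 (SE 0.0781, edgeR adjusted p 8.04e-05). Of 50-base stretches of the Hadhb transcript, 62.4% also occur in transcripts of genes elsewhere, mostly Gm13910, so reads can be lost from its count in both groups alike.

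For short chains, separate enzymes take the same steps. Hadh, the gene of short-chain hydroxyacyl-CoA dehydrogenase (chromosome 3, 131233424 to 131272037, 8 exon blocks), was at 1027, 888, 748, 821 and 997 CPM in heterozygotes 1 to 5 and at 519.9, 424, 469, 519 and 497 CPM in knockouts 1 to 5. It had the largest fall of the beta-oxidation genes, to 54.2% of the heterozygote level (edgeR log2 fold change -0.88 ± 0.103 SE, adjusted p 4.59e-05). Echs1, of the hydratase, fell from 475 ± 37.2 to 310.2 ± 28.2 CPM (SD over 5 animals; -0.62, edgeR adjusted p 0.000364). Acaa2, of the mitochondrial thiolase that ends a round, fell from 2808 ± 439.5 to 1619.7 ± 129 CPM (-0.79, adjusted p 0.000164), and was among the most abundant of the 38 genes per length (1872 ± 293 CPM per kb of exon in the heterozygote, 1080 ± 86.0 in the knockout). Acaa1a, of the peroxisomal thiolase, stood at 116 ± 21.1 CPM in the heterozygote and 93.9 ± 2.90 CPM in the knockout and was the single gene of this step not called (-0.31, SE 0.112, adjusted p 0.0689), although its groups lay apart. It was called with upper-quartile scaling (-0.34, adjusted p 0.0468), with DESeq2 (-0.32, adjusted p 0.0357) and without heterozygote 4 (-0.37, adjusted p 0.0343). Without heterozygote 2, its highest value, the log2 fold change was -0.20 (adjusted p 0.103). Of its 50-base stretches, 34.0% also occur in Acaa1b.

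Fatty acids with double bonds need auxiliary enzymes to be broken down fully. Decr1, the gene of a dienoyl-CoA reductase (chromosome 4, 15917240 to 15945507, 10 exon blocks), was at 578, 601, 481, 491 and 540.3 CPM in heterozygotes 1 to 5 and at 312, 307, 286, 286 and 326 CPM in knockouts 1 to 5. The lowest heterozygote was well above the highest knockout, and the change on the log2 scale was -0.83 (± 0.0897 SE, edgeR adjusted p 2.66e-05). The isomerase genes Eci1, Eci2 and Ech1 fell as well, without overlap. Eci1 went from 654 ± 96.5 to 409.5 ± 27.8 CPM (SD over 5 animals; -0.67, edgeR adjusted p 0.000456), Eci2 from 282 ± 24.1 to 191 ± 17.9 CPM (-0.56, adjusted p 0.000908) and Ech1 from 2142 ± 408 to 1296 ± 116 CPM (-0.72, adjusted p 0.000771). In the heterozygote group, heterozygote 2 was highest for Acadvl, Acads, Echs1, Acaa2, Acaa1a, Eci1, Eci2, Decr1 and Ech1. Without that animal each of these calls except that of Acaa1a, which was not called with it either, was kept.

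**Figure D4:**
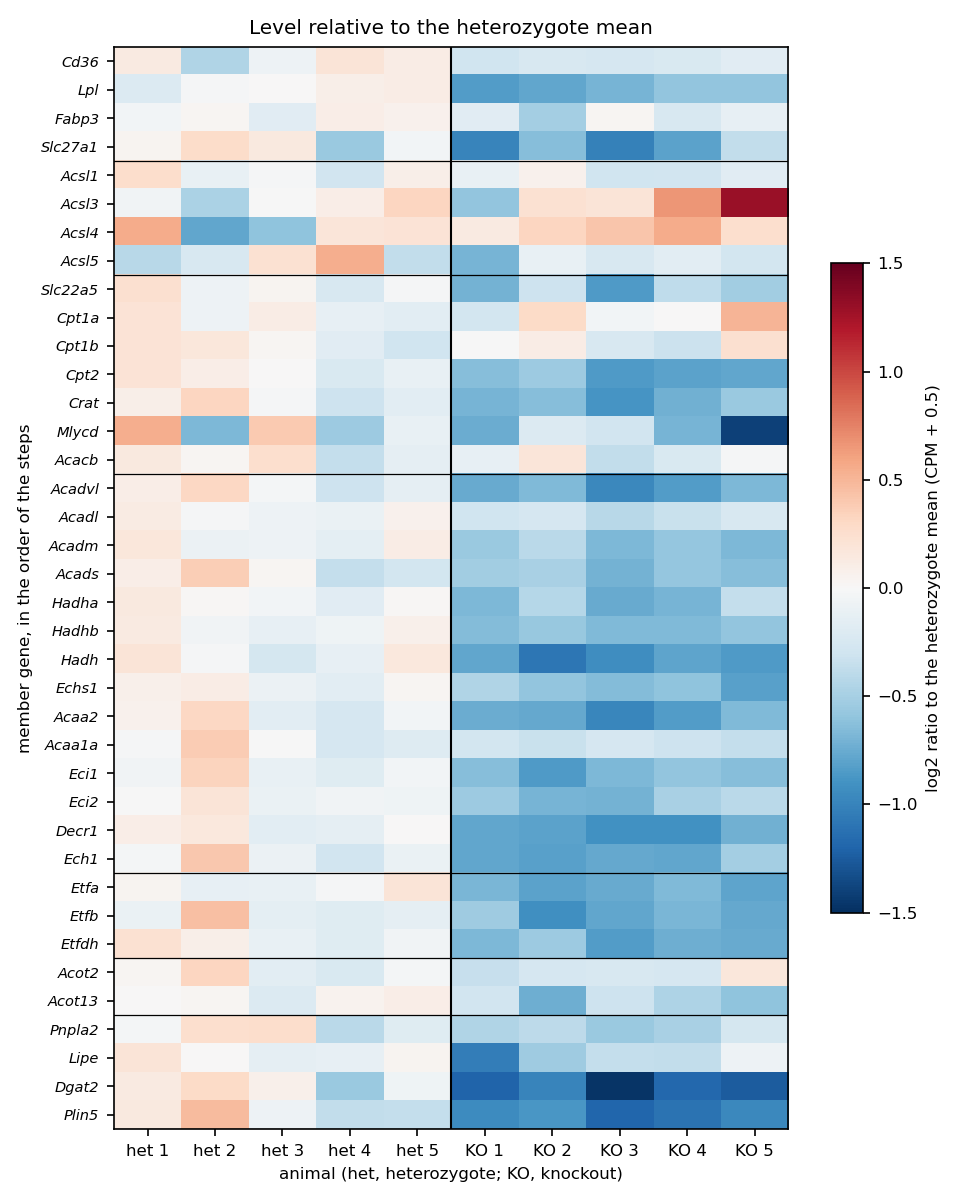
Rows are the 38 genes in the order of the steps, columns the 10 animals, and colour gives the log2 ratio of each CPM value (plus 0.5) to the heterozygote mean, blue for lower and red for higher. The median ratio over the genes was -0.68 to -0.54 in the 5 knockouts and -0.17 to 0.10 in the 5 heterozygotes; Acsl3 and Acsl4 are mostly red in the knockouts.

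Electrons from the dehydrogenases reach the respiratory chain through the electron transfer flavoprotein and its ubiquinone oxidoreductase. Etfa, of the alpha subunit (chromosome 9, 55454436 to 55512243, 12 exon blocks), was at 1109, 991, 1001, 1069 and 1237 CPM in heterozygotes 1 to 5 and at 674, 622, 638, 685 and 624 CPM in knockouts 1 to 5. Etfb, of the beta subunit, was at 1301, 1904, 1258, 1226 and 1265 CPM in the heterozygotes and at 958, 738, 813, 864 and 815 CPM in the knockouts. Etfdh, of the oxidoreductase, was at 1585, 1438, 1257, 1195 and 1304 CPM in the heterozygotes and at 851, 928, 760.3, 816 and 805 CPM in the knockouts. Each lay apart between the groups and the log2 fold changes were close to one another, at -0.74 (SE 0.0845, edgeR adjusted p 3.90e-05), -0.73 (SE 0.125, edgeR adjusted p 0.00105) and -0.70 (SE 0.0949, edgeR adjusted p 0.000160). The summed level of the 3 genes was 3828 ± 352 CPM in the heterozygote and 2318 ± 109 CPM in the knockout (SD, n = 5).

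Lipid droplets store fatty acids as triglyceride, and their genes held the 2 largest falls. Dgat2, whose enzyme makes triglyceride (chromosome 7, 99153663 to 99182713, 8 exon blocks), was at 659, 731, 635, 407 and 574 CPM in heterozygotes 1 to 5 and at 261, 301, 216, 266 and 253 CPM in knockouts 1 to 5. The knockout held 43.1% of the heterozygote level (edgeR log2 fold change -1.21 ± 0.141 SE, adjusted p 4.39e-05), and the groups did not overlap. Plin5, the gene of a droplet coat protein that links droplets with mitochondria (chromosome 17, 56111601 to 56117548, 9 exon blocks), was at 399.6, 501, 344, 280.2 and 281 CPM in the heterozygotes and at 188, 197, 158, 167 and 185 CPM in the knockouts. It held 49.6% of the heterozygote level (-1.01, SE 0.149, edgeR adjusted p 0.000319), also without overlap.

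The lipases that empty droplets were close to the threshold. Pnpla2, of adipose triglyceride lipase, fell from 484 ± 94.4 to 360.3 ± 28.6 CPM (SD over 5 animals; edgeR log2 fold change -0.43, adjusted p 0.0278), and Lipe, of hormone-sensitive lipase, from 49.0 ± 4.62 to 36.0 ± 8.33 CPM (-0.45, adjusted p 0.0465), both with overlap. The Pnpla2 call was lost with library totals alone (adjusted p 0.0531), with the endothelial covariate (0.0631), and without heterozygote 2 (0.0563), heterozygote 3 (0.0660), knockout 1 (0.0543), knockout 2 (0.0524), knockout 3 (0.0743) or knockout 4 (0.0621). The Lipe call was lost without heterozygote 1 (0.105), heterozygote 2 (0.0647), heterozygote 5 (0.0765), knockout 1 (0.0668), knockout 2 (0.0977), knockout 3 (0.0751) or knockout 4 (0.0685), and in 5 of the 10 other settings, with adjusted p up to 0.117. Lipe shares 453 of its 3266 exonic bases with 4732471J01Rik. Of the thioesterases, which release free fatty acid from acyl-CoA, Acot13 fell from 335 ± 26.4 to 242 ± 31.5 CPM without overlap (-0.47, edgeR adjusted p 0.00575), and with the endothelial covariate its log2 fold change was -0.49, past the threshold no longer (adjusted p 0.0563). Acot2 stood at 146 ± 22.6 CPM in the heterozygote and 129 ± 19.5 CPM in the knockout (-0.17, adjusted p 0.366; -0.080 without heterozygote 2 and -0.27 without knockout 5), with 27.7% of its 50-base stretches also found in other genes, mostly Acot1.

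**Figure D5:**
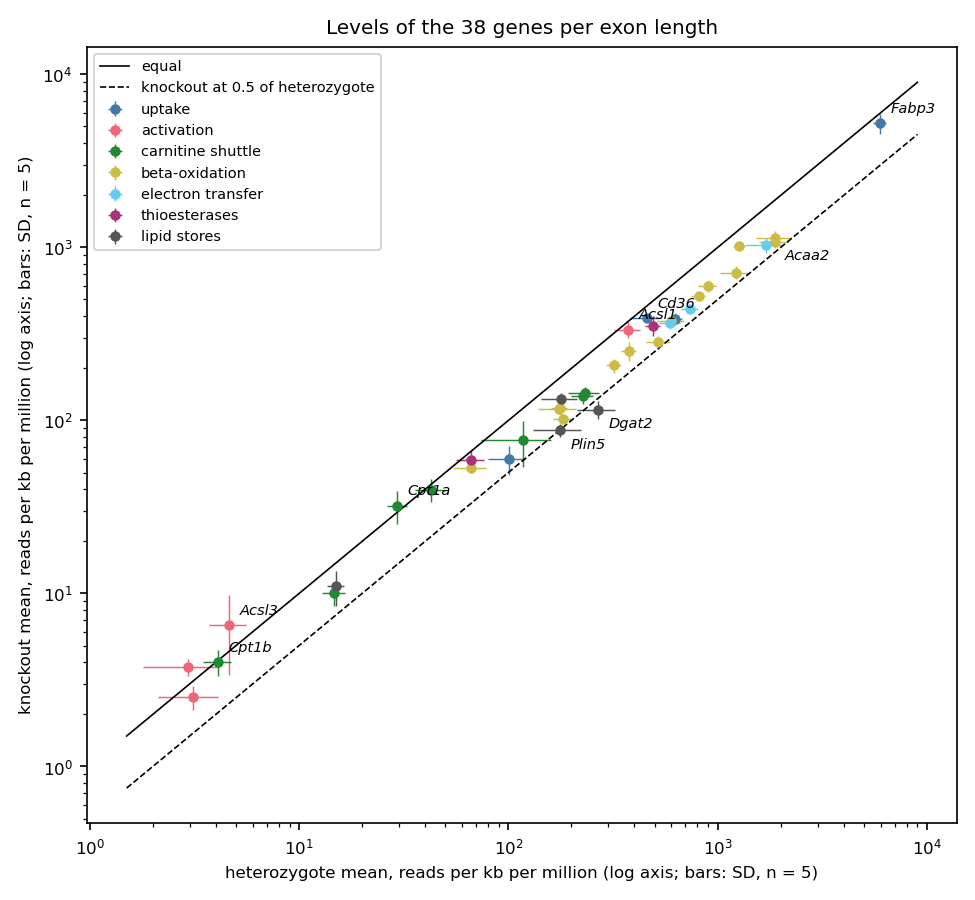
Each point is 1 of the 38 genes, with its heterozygote mean on the horizontal and its knockout mean on the vertical log axis, both in CPM per kb of exon, and bars of 1 SD (n = 5). The solid line marks equal levels and the dashed line a knockout level at 0.5 of the heterozygote; most points lie between them, from Acsl5 at 3.10 to Fabp3 at 5963 in the heterozygote, while Dgat2 and Plin5 lie below the dashed line and Cpt1a, Acsl3 and Acsl4 above the solid line.

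Other genes of the pathway were taken from a list of 110 further genes, of which 99 passed the filter. Of these, 28 were called lower and 4 higher, together 32.3%, with a median log2 fold change of -0.24. Of all tested genes 18.9% were called, 8.64% lower and 10.2% higher. Among tested genes that averaged 100 CPM or more, 34.5% were called, 19.8% lower. The 99 genes were not set beside genes of like level. By group, 8 of 18 genes of peroxisomal and other oxidation were called lower and 0 higher, 7 of 20 of lipid stores lower and 1 higher, 3 of 8 further thioesterases lower and 1 higher, 2 of 7 of fuel choice lower and 1 higher, 3 of 21 regulators lower and 1 higher, 2 of 6 of activation lower, 1 of 9 of uptake lower, 1 of 7 of the carnitine shuttle lower and 1 of 3 of electron transfer lower. With the endothelial covariate 15 of the 99 genes were called lower and 1 higher. Calls over all 11870 tested genes fell in that fit too, from 1025 to 494 lower and from 1216 to 527 higher.

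Among those apart between the groups, the largest change was that of Rxrg, the gene of a retinoid X receptor that pairs with other nuclear receptors, from 98.5 ± 17.8 to 28.5 ± 7.21 CPM (SD over 5 animals; edgeR log2 fold change -1.79 ± 0.171 SE, adjusted p 9.29e-06). Ppara and Ppargc1a, of the receptor and the coactivator most tied to these genes, were not called (-0.42, adjusted p 0.182, and -0.34, adjusted p 0.379). Both were named outside the choice by fold change, and a missing call does not show that a gene was unchanged. Slc25a20, of the carrier that moves acylcarnitine across the inner membrane between the enzymes of Cpt1b and Cpt2, fell from 382 ± 62.5 to 244 ± 13.3 CPM (-0.65, edgeR adjusted p 0.000983). Acss1, of a mitochondrial acetyl-CoA synthetase, fell from 542 ± 68.8 to 266 ± 40.9 CPM (-1.03, adjusted p 4.88e-05), and Sirt3, of a mitochondrial deacetylase, from 77.9 ± 17.1 to 50.9 ± 4.92 CPM (-0.61, adjusted p 0.00530).

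Further genes of droplets fell with Dgat2 and Plin5. G0s2, of an inhibitor of adipose triglyceride lipase, went from 72.7 ± 5.84 to 40.0 ± 5.44 CPM (SD over 5 animals; edgeR log2 fold change -0.86, adjusted p 7.65e-05), Fitm1 from 305 ± 51.1 to 207 ± 17.2 CPM (-0.56, adjusted p 0.00368), Fitm2 from 183 ± 23.3 to 127 ± 16.7 CPM (-0.53, adjusted p 0.00554) and Mgll, of monoacylglycerol lipase, from 124 ± 33.5 to 77.2 ± 14.6 CPM (-0.69, adjusted p 0.0123). Acot3 and Abcd2, both low, had log2 fold changes of -1.31 (adjusted p 0.00864) and -1.14 (adjusted p 0.0203). In the other direction, Fasn, of fatty acid synthase, rose from 67.1 ± 9.24 to 123 ± 30.7 CPM (0.87, edgeR adjusted p 0.00143) and Pdk3, of a pyruvate dehydrogenase kinase, from 14.7 ± 2.78 to 25.3 ± 5.19 CPM (0.77, adjusted p 0.00444). The other 2 genes called higher, Esrrg (0.39, adjusted p 0.0457) and Acot9 (0.35, adjusted p 0.0457), overlapped between the groups and were named after their values were seen. Neither was called higher with RLE or upper-quartile scaling, the replicate block or the Y-linked covariate. The same held without heterozygote 2, 3 or 5, or without knockout 1, 2, 3 or 4. With the endothelial covariate the calls of Esrrg and Acot9 were lost. So were 5 calls among the 12 further genes named for their fold changes. The log2 fold change was then close to its value without the covariate for Sirt3 (-0.62, adjusted p 0.0531) and Fitm2 (-0.51, adjusted p 0.0670), and smaller for Abcd2 (-0.93, adjusted p 0.181), Fasn (0.63, adjusted p 0.0622) and Mgll (-0.36, adjusted p 0.323).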

How the data were processed

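RNA was sequenced from sorted cardiomyocytes of 10 mice, 5 per group, which the series text describes as separate animals. The deposited table holds read counts per gene, made by the authors with featureCounts 1.5.1 on mm10 with a 2012 annotation, per the file headers, which name 4 threads and no other option. STAR 2.5.3a, Subread 1.5.2 and CASAVA 1.8 stand in the submitters' processing notes; which aligner made the counted alignments is not settled by the sources used here. Of 14 count columns, 10 matched samples and 4 were not used. The labels name no batch.

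Genes were filtered with filterByExpr (minimum count 10), scaled by TMM and tested with edgeR 4.0.16 (quasi-likelihood, R 4.3.3), with Benjamini-Hochberg adjustment over all 11870 tested genes and calls at an adjusted p under 0.05. Levels per length divide CPM by exonic length. Counts with 0 allow 3 counts. A share was compared by an exact permutation test (scipy 1.17.1). Alternatives were RLE, upper-quartile and no composition scaling, other filters, a replicate block, DESeq2 1.42.0, limma 3.58.1 voom, marker covariates and leaving out each animal. The tests were tested on simulated data. Replicate pairs differed by more than sampling noise (chi-square over degrees of freedom 10.8 to 37.5). Precision depends on totals of 8086656 to 25237696 counts.

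Members and lists were chosen with earlier results of these data known. All 38 members are named, and of the other pathway genes the 12 with the largest fold changes among those called, apart between groups and at a mean of at least 5 CPM. Ppara, Ppargc1a, Esrrg and Acot9 are named outside that rule. Exon sharing was read from the deposited exon coordinates; stretches of 50 bases shared with other genes' transcripts from GENCODE M21.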

Additional observations from a re-analysis of the deposited data

Results flagged for a closer look

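In 5 of 106 groups of 5 animals a single value stood apart from the other 4 by more than Dixon's 95% limit for the gap over the range (0.71); chance flags about 1 in 20, or 5.3 of 106. Heterozygote 2 held 2 of them: Eci1 at 822 CPM, with the next at 635 CPM, and Etfb at 1904 CPM, with the next at 1301 CPM. Both genes were still called lower without that animal. Knockout 5 held another 2: Ech1 at 1502 CPM, with the next at 1260 CPM, and Acot2 at 163 CPM, with the next at 124 CPM. Without knockout 5 Ech1 was still called and Acot2 still was not. The last was the total of heterozygote 1, 25237696 counts, with the next heterozygote at 10309615.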

How the results depend on the processing

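Of 760 combinations of the 38 genes with an alternative, 726 kept direction and side of the threshold, 21 lost the call, 6 gained one and 7 turned sign, all 7 in genes that were not called. The turned log2 fold changes were 0.174 for Acsl5 and -0.0171 for Cpt1a with the endothelial covariate, and for Cpt1b 0.0593 with library totals alone, 0.0403 and 0.0205 without heterozygotes 1 and 2, and 0.0239 and 0.0412 without knockouts 3 and 4 (-0.109 to 0.0412 over all 10 animals left out). The number of the 38 genes called was 23 (endothelial covariate) to 28 (limma voom), all lower. Of 240 combinations for the 12 named further genes, 235 were kept and 5 lost, all with the endothelial covariate.

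With the endothelial covariate 1021 of all genes were called, 527 higher and 494 lower, and 16 further pathway genes, 15 lower and 1 higher; the cause was not tested. Of the further pathway genes, 2 in place of 4 were called higher with RLE scaling, upper-quartile scaling, the replicate block and the Y-linked covariate. Leaving out each animal gave 1699 to 2258 genes called (942 to 1271 higher, 757 to 1086 lower), 24 to 27 of the 38 genes, all lower, 25 to 35 further pathway genes (23 to 32 lower, 2 to 4 higher), and differences in the Acsl1 share of -1.26 to -0.572 points. Library totals alone shifted the median of all tested genes to 0.084.

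Nothing in the labels says that a shared replicate number pairs animals. Same-numbered animals correlated at -0.0604 to 0.185 in their deviations, 3 of 5 pairs above 0.1, and 2 of 5 numbers matched best with their own. These values cannot tell whether the numbers pair animals. Because the labels name no pairing, the main test left the animals unpaired, and a block on the numbers was an alternative. With the numbers as a replicate block 2182 genes, 25 of the 38 (Lipe lost, edgeR adjusted p 0.0522) and 32 further pathway genes were called, and the Acsl1 share gave an exact p of 0.125 (smallest possible 0.0625). The planned share of Cpt1a in both isoforms was not run, since 150 bases of Cpt1b could be counted. Among the 38 genes the standard errors of Acsl3 (0.271) and Mlycd (0.251) were the largest, and depth limits Acsl3, Acsl4, Acsl5 and Cpt1b, which held few counts.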

Other observations

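The animals were compared gene by gene. In knockouts 1 to 5, 32, 28, 30, 32 and 25 of the 38 genes lay below the lowest heterozygote. The same count was not made over all tested genes, so these numbers have no background to be read against. Per exon length, the 9 genes with the highest levels held the same order in both groups: Fabp3, Ech1, Acaa2, Etfb, Acadl, Acadvl, Acadm, Hadhb and Etfa. The knockouts varied less than the heterozygotes (lower coefficient of variation) in 28 of the 38 genes (73.7%), beside 71.9% of all tested genes that averaged 100 CPM or more, so the 38 genes did not stand out in this.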
